A study of Mus musculus with 24 samples.

Results

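The comparison described here is that between mouse embryonic fibroblasts lacking CHIP and wildtype fibroblasts after heating, on the arrays labelled 30 min. Its members are 6 of the series' 24 arrays, chosen by their labels alone: 3 replicates titled as CHIP null, heat shock, 30 min, and 3 titled as wildtype, heat shock, 30 min. All 6 held RNA of primary cells grown from day 13.5 embryos of C57BL6 mice, bred from parents with 1 working copy of the CHIP gene, cultured with β-mercaptoethanol at 37 °C and then heated to 43 °C. The wildtype cells were CHIP +/+, and the labels call the other genotype null. The other groups of the series are the same genotypes without heating and arrays labelled 240 min. The labels speak of 3 biological replicates per condition and do not say how many embryos or litters gave rise to the cultures. On each array Cy5 carried the RNA of the cells and Cy3 a commercial mouse reference RNA that was the same throughout. A value is the log2 of Cy5 over Cy3, and a difference is CHIP null minus wildtype, so that a positive difference means more of the transcript in the null cells. Every time given is the label of the scanner file: the authors' table of processed values assigns each array to the other time label, and nothing in the sources used here settles which is right.

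CHIP, encoded by Stub1, is a co-chaperone and a ubiquitin ligase: it binds the tail of HSP70 and HSP90 and tags their clients for degradation by the proteasome. It is known to act on heat shock factor 1, the transcription factor that switches on chaperone genes, and the study's title links it to DAXX, a regulator of chromatin and cell death, and to the death programme of p53. In heated cells HSP70 normally accumulates as unfolded proteins free HSF1, and p53 can induce genes of growth arrest and of cell death.

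Stub1 (chr17:25830634-25832919 in GRCm38.p6) checked the labels. Its log2 ratio was -0.04, -0.01 and -0.08 on the heated wildtype arrays and -1.73, -1.72 and -1.92 on the heated null arrays. The groups lay far apart, and the difference was -1.75 ± 0.07 (standard error, n = 3 against 3; limma adjusted p = 3.2e-17), a 3.36-fold lower level. The probe retained a signal above background in the null cells.

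The heated cultures also differed in sex-linked RNA. Xist, which silences 1 X chromosome in female cells, read -1.71, -1.44 and -1.33 in the null cells and -3.15, -3.30 and -2.94 in the wildtype, where no array was well above background, so it was at least 3.02-fold higher in the null (limma adjusted p = 1.3e-12). The Y-linked Eif2s3y and Ddx3y were lower in the null, with differences of -0.97 and -0.78, and not well above background there, so their null level is only bounded. Of 8 genes known to escape X inactivation, 4 were higher in the null (2 with median centring): Pbdc1 by 0.64, Eif2s3x by 0.59, Kdm5c by 0.29 and Ddx3x by 0.22. Kdm5c was not called with median centring, nor Ddx3x with median centring, an offset of 10, only the compared arrays, or without wildtype replicate 3 or null replicate 2 or 3. At 240 min the difference was 0.01 for Xist, and neither Y gene nor any of the 8 escape genes was called. What part of the autosomal differences below goes with the sex-linked ones was not tested.

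The arrays were alike in quality, and slide was bound to genotype. The share of probes whose Cy5 signal was well above background was 37.1% ± 1.89 (SD, n = 3) in the heated wildtype and 34.6% ± 1.87 in the heated null. Across probes, replicates correlated with r from 0.983 to 0.987 in the wildtype and from 0.978 to 0.988 in the null, and none were duplicates. The 3 heated wildtype arrays lay on slide 2, null replicate 1 on slide 3 and null replicates 2 and 3 on slide 1, so the groups shared 0 slides and no value within a slide can be given. A fit with slide as a block reaches this comparison only through unheated arrays on the same slides, and its counts are given below beside each list in which it moved the calls of a direction by over 1.5 times. Counts with each array centred on its median stand beside them where they moved by as much.

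Of 11655 autosomal genes tested, 3307 (28.4%) differed between heated null and heated wildtype cells at an adjusted p of 0.05. The null cells had 1676 genes (14.4%) at a higher and 1631 (14%) at a lower level. These shares are the background for the counts of the gene lists below. Most of these differences were small: the median size among called genes was 0.29 on the log2 scale, 367 genes passed 1.5-fold (153 higher, 214 lower) and 87 passed 2-fold (25 higher, 62 lower). With slide as a block 1511 genes were called. Centring each array on its median in place of loess gave 1391, of which 28.4% were higher against 50.7% with loess. In 4669 genes (40.1%) all 3 arrays of one genotype lay beyond all 3 of the other.

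The 15 largest rises were led by Mmp3, Slpi and Il1rl1. Mmp3, stromelysin-1, which degrades matrix proteins, read 3.56, 3.15 and 3.04 on the null arrays and 0.85, 0.78 and 0.62 on the wildtype arrays. The lowest null array was thus far above the highest wildtype array, and it was 5.65-fold higher (standard error 0.13 on the log2 scale; limma adjusted p = 2.8e-15). Slpi, a secreted inhibitor of leukocyte proteases, read 0.62, 0.81 and 0.69 in the null and -1.61, -1.66 and -1.52 in the wildtype, a 4.94-fold difference. Il1rl1, the receptor of interleukin-33, read 3.78, 3.50 and 3.62 against 1.32, 1.45 and 1.28, a 4.86-fold difference. That difference of 2.28 ± 0.08 came from the brightest probe, and 2 further probes gave 0.35 and 0.68. Syt13, a synaptotagmin of the membrane traffic machinery, was higher by 1.92, against 0.09 by another probe.

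Dcn, the collagen-binding proteoglycan decorin, read -2.38, -2.59 and -2.54 in the null and -4.29, -4.14 and -3.86 in the wildtype, so it was low against the reference in both and 3.01-fold higher in the null. The neutrophil-attracting chemokine Cxcl5 read 1.72, 1.80 and 1.67 against 0.09, 0.36 and 0.10, and only 1 of the 3 wildtype arrays was well above background. Ccn5, a matricellular protein of the CCN family, was higher by 1.55 ± 0.08. Slc16a3, the lactate exporter MCT4, read -0.13, -0.15 and -0.08 against -1.52, -1.37 and -1.43, and replicates differed by less than 0.2 within each genotype. The remaining rises among the first 15 were the elastin-associated Emilin2 (1.48), the procollagen protease Adamts2 (1.47), the water channel Aqp1 (1.37), the retinoic acid binding protein Crabp1 (1.32), the membrane protein Lrrc15 (1.31), the monocyte chemokine Ccl2 (1.28) and the surface antigen Ly6c1 (1.25). Other probes of Adamts2 gave 0.10 and 0.39 and that of Ly6c1 0.18, in the same direction.

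The 3 largest falls were of Ncan, Fabp7 and Mlc1. Ncan, the nervous system proteoglycan neurocan, read 1.85, 1.73 and 1.93 in the heated wildtype, against -1.86, -1.81 and -1.63 in the heated null. That 12.2-fold difference (-3.60 ± 0.07; limma adjusted p = 8.7e-25) was the largest of any autosomal gene tested in this comparison. Fabp7, the fatty acid binding protein of radial glia, read 0.89, 0.93 and 0.83 against -2.50, -2.21 and -2.31, a 9.35-fold lower level in the null. Mlc1, an astrocyte membrane protein, read 2.32, 2.35 and 2.52 against -0.30, -0.28 and -0.29. In all of them the wildtype arrays lay within 0.2 of each other and above the reference. In bulk RNA, fewer cells of a type and less RNA per cell cannot be told apart.

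Gstm1, a glutathione transferase, was lower by 2.04 ± 0.06 (4.11-fold; -0.98 by its other probe), and its neighbour Gstm3 by 1.54. These transferases are close paralogs, and cross-hybridization between them was not tested. Ckb, brain creatine kinase, read 1.82, 1.84 and 2.07 in the wildtype, against -0.06, 0.00 and 0.04 in the null. Fxyd6, a regulator of the sodium pump, was lower by 1.89 (-0.36 by another probe). Igfbp2, which binds insulin-like growth factors, was lower by 1.77, with a value on only 2 of the 3 wildtype arrays. The extracellular chaperone clusterin, Clu, was lower by 1.74, Wscd2 by 1.67, Scrn1 by 1.59 (-0.61 by another probe) and the neuronal ubiquitin hydrolase Uchl1 by 1.55 (-0.68 by another probe). Cryab, the small heat shock protein alphaB-crystallin, is also among the first 15 falls and is described with the chaperones. The 30 genes of both groups kept direction and call in 449 of 449 alternative fits, the slide block included.

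**Figure D1:**
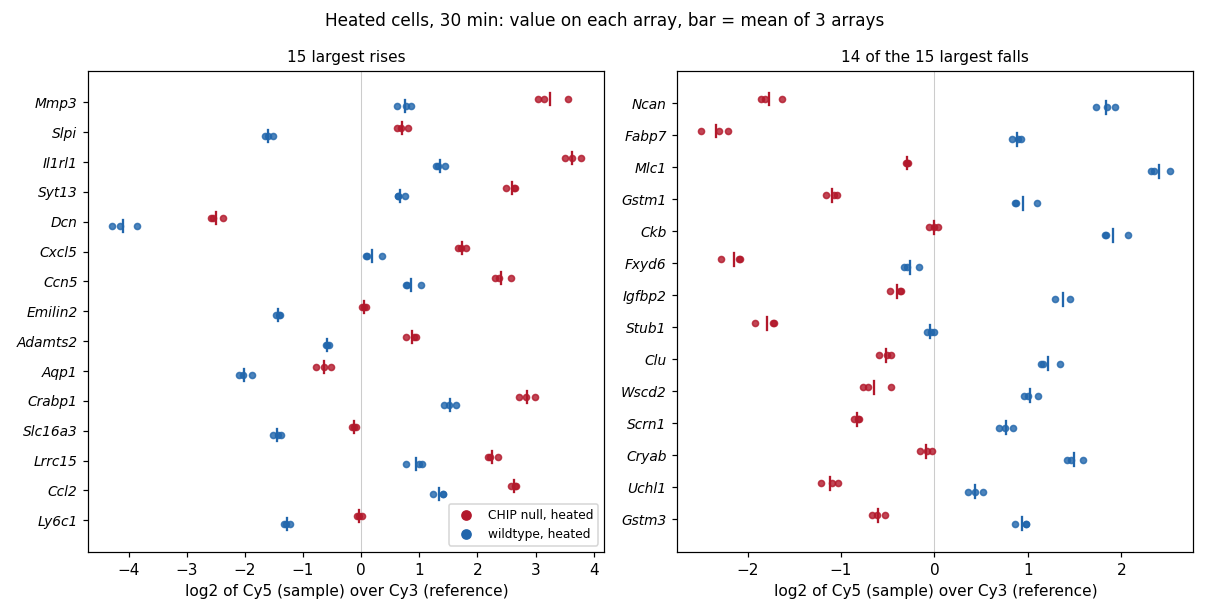
Log2 of Cy5 over Cy3 (horizontal axis) for the 15 genes with the largest rises (left) and 14 of the 15 with the largest falls (right) in CHIP null cells, each point an array and each bar the mean of its group, in red for heated null and blue for heated wildtype cells at 30 min. No null array overlaps a wildtype array, which the choice of genes requires; Mmp3 separates 5.65-fold and Ncan by -3.60, and Igfbp2 has 2 wildtype points.

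Most of these differences were also called in unheated cells. The unheated arrays of the 30 min set are other arrays than the heated ones, but lie on the same slides 1, 2 and 3. The unheated null lay on slide 3 and the unheated wildtype on slides 1 and 2, so slide was bound to genotype there too. The 2 tested Y genes were lower in the unheated null (median -1.17) and 4 of the 8 escape genes higher (median 0.24). What part of the agreement goes with slide or sex-linked RNA was not tested. In unheated cells 4128 genes (35.4%) were called, 1761 higher (15.1%) and 2367 lower (20.3%). With median centring 66.3% of the calls there were higher against 42.7%. Of the 1676 genes higher in heated null cells, 1164 were also called higher in unheated null cells, which is 69.5% of the heated list and 66.1% of the unheated one. Of the 1631 lower genes, 1355 were also lower without heat, 83.1% of the first list and 57.2% of the other. All 87 genes past 2-fold in heated cells were called in the same direction in unheated cells, 70 of them again past 2-fold. Across all 11655 genes the differences correlated at r = 0.863, a description across genes, which are not independent. Mmp3 differed by 2.52 without heat, Ncan by -3.62, Fabp7 by -3.26 and Stub1 by -1.83.

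Fewer of them were called at the other time label. In heated cells at 240 min 1575 genes (13.5%) were called, 561 higher (4.81%) and 1014 lower (8.7%; 8.08% of calls higher with median centring against 35.6%), and the differences correlated with those at 30 min at r = 0.276 across genes. Of the 1676 higher genes 212 were called higher there as well, 12.6% of the 30 min list and 37.8% of the 240 min list, and 101 were called lower. Of the 1631 lower genes 415 were shared, 25.4% and 40.9%, and 47 were called higher. Among the 87 genes past 2-fold, 53 were called in the same direction at 240 min, 7 in the opposite one and 6 passed 2-fold again. Stub1 (-2.02), Slc16a3 (1.12), Ccn5 (1.20) and Mest (-1.14) were among those 6. By contrast Mmp3 differed by -0.12 (limma adjusted p = 0.63), Mlc1 by 0.10, Ncan by -0.29 and Fabp7 by -0.56.

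**Figure D2:**
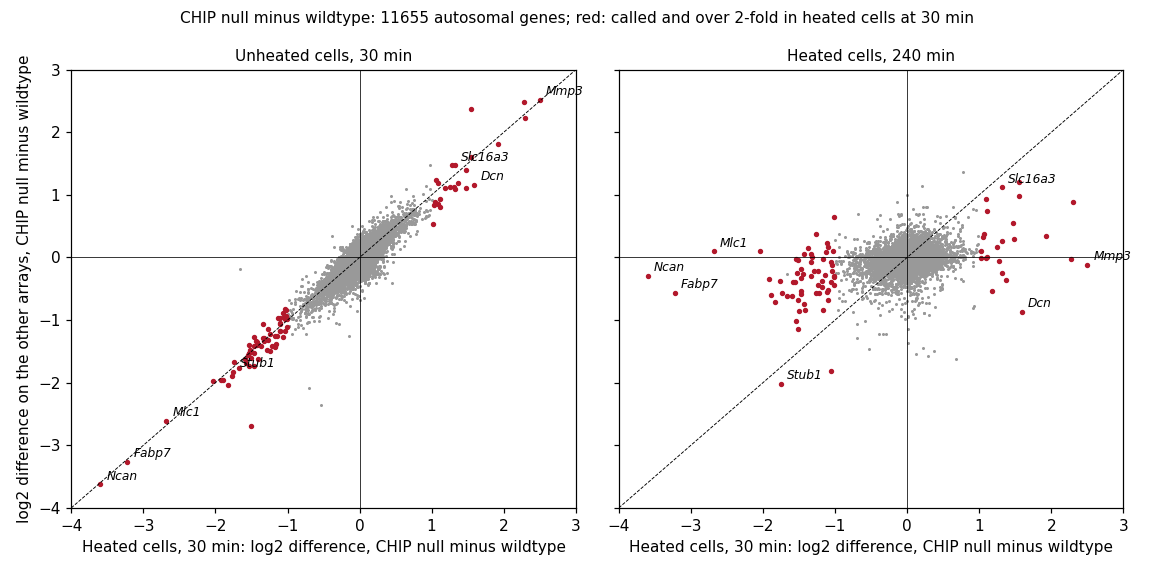
Log2 difference between CHIP null and wildtype in heated cells at 30 min (horizontal) against that in unheated cells at 30 min (left) and heated cells at 240 min (right), for 11655 autosomal genes, with the 87 genes called and past 2-fold in red and the dashed line marking equal differences. The red points lie along the line on the left (r = 0.863 over all genes) and near 0 on the vertical axis on the right (r = 0.276), where Stub1 and Slc16a3 stay close to the line.

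The change with the time label was itself tested as a difference of differences. In 2114 genes (18.1%) the genotype difference in heated cells was not the same at 240 as at 30 min, and 83 of the 87 genes past 2-fold were among them. Ncan moved by 3.31 ± 0.10 in that difference, the gap closing because the wildtype level was lower at 240 min. Fabp7 shows it by array: the wildtype read -2.18, -2.02 and -2.01 at 240 min, close to the null at -2.60, -2.61 and -2.67. Mmp3 closed from both sides, with wildtype arrays at 2.07, 2.15 and 2.18 against null arrays at 1.88, 2.20 and 1.96. Dcn turned over, with a difference of -0.87 at 240 min that rests on 1 null array, since the other null spots were marked as outliers. Col7a1, the collagen of anchoring fibrils, also turned, from -1.02 to 0.65. Penk, the precursor of the enkephalins, and Bst2, the antiviral protein tetherin, went from 0.68 and 0.38 to -1.62 and -1.50. The 240 min arrays lie on other slides than the 30 min arrays, so time and slide cannot be told apart. The sex-linked difference changed as well: the Y genes had a median of -0.88 at 30 min and 0.09 at 240 min. At 240 min the share of probes well above background was 45.1% in the heated wildtype and 44.6% in the heated null. At 30 min it was 37.1% and 34.6%. What part of the change goes with slide, sex-linked RNA or signal was not tested.

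**Figure D3:**
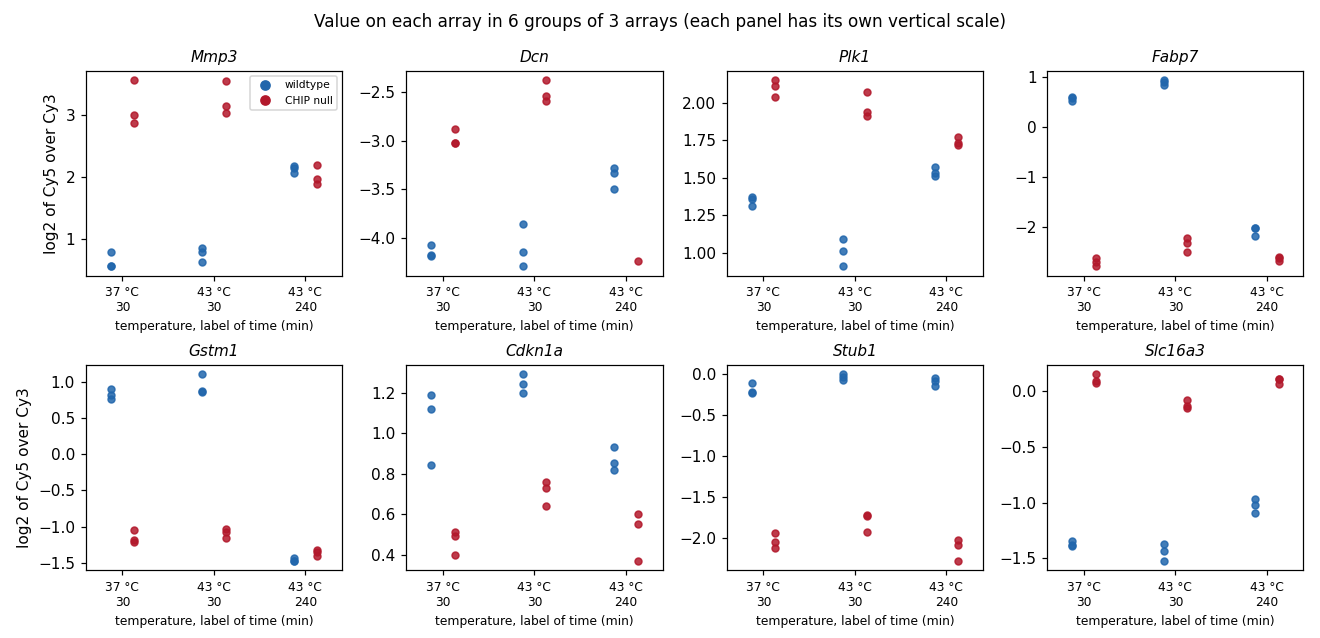
Log2 of Cy5 over Cy3 on every array (vertical axis, own scale in each panel) for 8 genes in unheated cells at 30 min and heated cells at 30 and 240 min, with wildtype in blue and CHIP null in red. Stub1 and Slc16a3 are apart in every group, while Mmp3, Fabp7 and Gstm1 are apart at 30 min and meet or nearly meet at 240 min; Dcn has 1 null point at 240 min.

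Genes of cell division formed the most uniform group that was higher in heated null cells. Of 27 tested genes of mitosis, 25 were higher and 0 lower, and the list's median difference was 0.59 against 0.01 over all autosomal genes. Plk1, the kinase that drives entry into and passage through mitosis, read 2.07, 1.94 and 1.91 in the null and 1.01, 0.91 and 1.09 in the wildtype. Aurka, the kinase of the spindle poles, read 2.13, 2.16 and 1.99 against 1.18, 1.16 and 1.07. Ccnb2, a cyclin of the mitotic kinase CDK1, read 0.26, 0.37 and 0.26 against -0.71, -0.63 and -0.57. Each of these was about 1 log2 unit apart with no overlap between the groups. The mitotic motor Kif20a read 1.75, 1.75 and 1.74 against 0.75, 0.82 and 0.66, and its other probe gave 0.98. Birc5, survivin, a subunit of the complex that guides chromosome segregation and a member here of the list of caspase inhibitors, was higher by 1.09 ± 0.07. Only Ect2 (0.27, limma adjusted p = 0.058) and Ttk (0.01) of the mitosis list, both looked up after the count was known, were not called. With slide as a block 19 of the 27 were higher and 0 lower, and with median centring 18 and 0.

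The replication machinery followed. Of 27 genes of DNA replication 24 were higher and 0 lower, with a median of 0.43, although 14 were called higher with slide as a block and 15 with median centring, both with a median of 0.37. Prim1, the primase that starts each new strand, read 0.53, 0.56 and 0.68 against -0.22, -0.18 and -0.13. Tyms, which makes thymidylate, was higher by 0.73 (0.75 by its other probe), Rrm1, a subunit of ribonucleotide reductase, by 0.69 and the licensing factor Cdt1 by 0.63. Among 28 replication-dependent histones 13 were higher and 7 lower. The 4 largest histone differences were falls, in H2bc4 (-0.81), H2bc12 (-0.76), H1f2 (-0.71) and H2bc14 (-0.69). Histone genes within a family are near-identical, so their values may mix family members. In unheated cells the mitosis list had 25 higher and 0 lower and a median of 0.63. At 240 min 2 were higher, with a median of 0.07, and the difference between times was called in 19 of 27.

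The promoters of the mitotic genes share sequence elements of cell-cycle genes, shown here because these genes moved together. In the 250 bases before the first listed start of each gene (RefSeq, GRCm38.p6), CCAAT on either strand, the box bound by NF-Y, was found in 20 of 23 mitotic genes with an entry (87%). Of 9303 matched genes among the 11655 tested, 36.2% had it, as did 61.9% of the replication list and 64.7% of the p53 arrest list. TTTGAA on either strand, the CHR element, was found in 9 of the 23 (39.1%) against 10.3% of the tested genes and 9.52% of the replication list. A match is a description of the letters, not of binding. The promoters of the mitotic genes with the largest differences, apart from Kif20a, are given 5′ to 3′ with both motifs in capitals.
Plk1 promoter, chr7:122159185-122159434, plus strand: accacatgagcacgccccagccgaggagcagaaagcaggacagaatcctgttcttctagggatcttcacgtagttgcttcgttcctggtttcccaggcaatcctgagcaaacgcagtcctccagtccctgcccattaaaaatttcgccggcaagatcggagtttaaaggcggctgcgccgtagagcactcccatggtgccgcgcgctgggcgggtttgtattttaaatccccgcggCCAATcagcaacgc
Aurka promoter, chr2:172370571-172370820, minus strand: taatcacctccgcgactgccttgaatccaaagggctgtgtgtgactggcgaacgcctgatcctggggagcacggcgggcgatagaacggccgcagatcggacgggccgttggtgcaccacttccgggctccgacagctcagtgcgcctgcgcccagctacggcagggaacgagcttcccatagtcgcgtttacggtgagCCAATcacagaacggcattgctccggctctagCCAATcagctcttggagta
Ccnb2 promoter, chr9:70421555-70421804, minus strand: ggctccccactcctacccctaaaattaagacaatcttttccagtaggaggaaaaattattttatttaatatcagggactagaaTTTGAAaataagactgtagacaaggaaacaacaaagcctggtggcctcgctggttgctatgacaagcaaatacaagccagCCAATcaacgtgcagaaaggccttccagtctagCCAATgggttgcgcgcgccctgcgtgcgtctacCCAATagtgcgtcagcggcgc
Ube2c promoter, chr2:164769679-164769928, plus strand: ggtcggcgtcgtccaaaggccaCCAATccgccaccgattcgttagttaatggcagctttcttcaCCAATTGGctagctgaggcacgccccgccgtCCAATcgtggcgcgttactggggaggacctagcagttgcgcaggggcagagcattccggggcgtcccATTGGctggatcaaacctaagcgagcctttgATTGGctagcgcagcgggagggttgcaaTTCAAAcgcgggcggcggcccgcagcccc
The Plk1 window holds 1 match of either motif, Aurka 2, Ccnb2 4 and Ube2c 7. Ube2c, the ubiquitin-conjugating enzyme of the anaphase-promoting complex, was higher by 0.92 ± 0.07, reading 1.26, 1.08 and 0.99 in the null against 0.17, 0.27 and 0.13.

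Targets of p53 were more often lower than higher in heated null cells, and Trp53 itself was not. Trp53 read 0.37, 0.54 and 0.47 in the null and 0.29, 0.21 and 0.25 in the wildtype, a rise of 0.21 ± 0.06 (limma adjusted p = 0.011; 0.38 by another probe). It was not called with a normexp offset of 10, with the Feature Extraction ratio or with median centring, and not without wildtype replicate 2 or null replicate 2. Of 21 genes of arrest, repair and feedback, 10 were lower and only Trp53 was higher, with a median of -0.16. Gdf15, a stress-induced cytokine, read 1.59, 1.52 and 1.59 in the wildtype, against 0.50, 0.56 and 0.35 in the null, a fall of 1.10 ± 0.09. Trp53inp1 was lower by 0.85 ± 0.07 (-0.44 by its other probe), the cyclin Ccng1 by 0.73 (-0.33) and the epoxide hydrolase Ephx1 by 0.62 (-0.63). Cdkn1a, the cell-cycle inhibitor p21, named here after its values were seen, read 1.24, 1.29 and 1.20 in the wildtype, against 0.76, 0.73 and 0.64 in the null.

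Of 17 p53 targets in cell death 7 were lower and 2 higher, with a median of -0.11 (7 lower and 0 higher with slide as a block or median centring). Pmaip1, the death protein NOXA, read 2.56, 2.48 and 2.43 in the wildtype, against 1.12, 0.90 and 1.06 in the null, a 2.77-fold lower level. Perp, a membrane protein of desmosomes and of apoptosis, was lower by 0.53, Aifm2, a flavoprotein now known for its part in resisting ferroptosis, by 0.46 (-0.05 by its other probe) and Bbc3, the death protein PUMA, by 0.44. At 240 min Perp was lower by 1.46 and Pmaip1 by 0.58, while Gdf15 differed by 0.17. In unheated cells 12 of the 21 arrest genes and 8 of the 17 death genes were lower. Among 21 further BCL2 family genes, caspases and inhibitors 3 were higher and 1 lower, led by Birc5, 19% in all against 28.4% of all autosomal genes. The counts were 2 and 0 with slide as a block, 1 and 0 with median centring, and 5 and 2 without null replicate 1. The lower one, Cflar, an inhibitor of caspase-8, gave -0.34 by its brightest probe and 0.02 and 0.04 by others. Cflar was not called with median centring, the mean of probes or slide as a block, or without wildtype replicate 1.

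Daxx read -0.39, -0.23 and -0.19 in the heated null and -0.37, -0.29 and -0.33 in the heated wildtype, so the groups overlapped and the difference of 0.06 ± 0.06 did not pass the test (limma adjusted p = 0.51). In the list of 18 genes around DAXX, the HIPK kinases and ASK1, 0 were higher and 2 lower, 11.1% against 28.4% of all autosomal genes. The counts were 1 and 1 with slide as a block, 0 and 1 with median centring or without null replicate 1, and 0 and 3 without null replicate 2.

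Of 27 cytosolic heat shock proteins 2 were higher and 8 lower, 37% in all against 28.4% of all autosomal genes, with a median of 0.00. The slide block left 1 higher and 3 lower, and median centring 0 and 5. Hspa1a, the inducible HSP70, read -0.51, -0.06 and 0.28 in the null and -0.33, -0.04 and -0.62 in the wildtype. The replicates spread more widely than the genotypes differed (0.23 ± 0.38, limma adjusted p = 0.71). Hspa8, the constitutive HSP70, differed by 0.01 ± 0.08, Hspd1, the mitochondrial chaperonin, by -0.05 ± 0.12 and Hsf1 by 0.01 ± 0.07, none of them called. The largest falls of the list were of small heat shock proteins. Cryab read 1.46, 1.42 and 1.59 in the wildtype, against -0.03, -0.08 and -0.16 in the null, a 2.99-fold lower level by that probe and -0.29 by another. Hspb8, the small heat shock protein that works with BAG3, read 0.62, 0.66 and 0.61 against -0.65, -0.61 and -0.64. At 240 min Hspb8 was higher in the null by 0.38, and Cryab was lower by 0.39.

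Among 21 partners of CHIP and heat shock factors 2 were higher and 3 lower, 23.8% in all against 28.4% of all autosomal genes. The counts were 1 and 1 with slide as a block or median centring. There were 3 calls in all without wildtype replicate 1, null replicate 1 or null replicate 2. Stip1, which bridges HSP70 and HSP90, was higher by 0.46 ± 0.10 and the HSP90 immunophilin Fkbp4 by 0.26. Stip1 was not called with slide as a block, and Fkbp4 not with median centring or without wildtype replicate 1 or null replicate 2. Hsbp1, a small negative regulator of HSF1, read -0.29, -0.29 and -0.24 in the wildtype, against -1.26, -1.13 and -1.17 in the null, with -0.37 and -0.34 by other probes. Bag3 was lower by 0.20, but higher by 0.03 at a second probe, and its call was lost with the Feature Extraction ratio, median centring, the mean of probes, slide as a block (-0.06) and without null replicate 1. Of 14 mitochondrial chaperones and proteases 4 were higher, 28.6% against 28.4% of all autosomal genes, and none by more than the 0.30 of Trap1. That count was 2 with slide as a block or without wildtype replicate 1, and 0 with median centring. Of 34 proteasome genes 2 were higher and 3 lower, 14.7% in all against 28.4% of all autosomal genes. Their median was 0.00, and 0 were called with slide as a block or median centring.

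**Figure D4:**
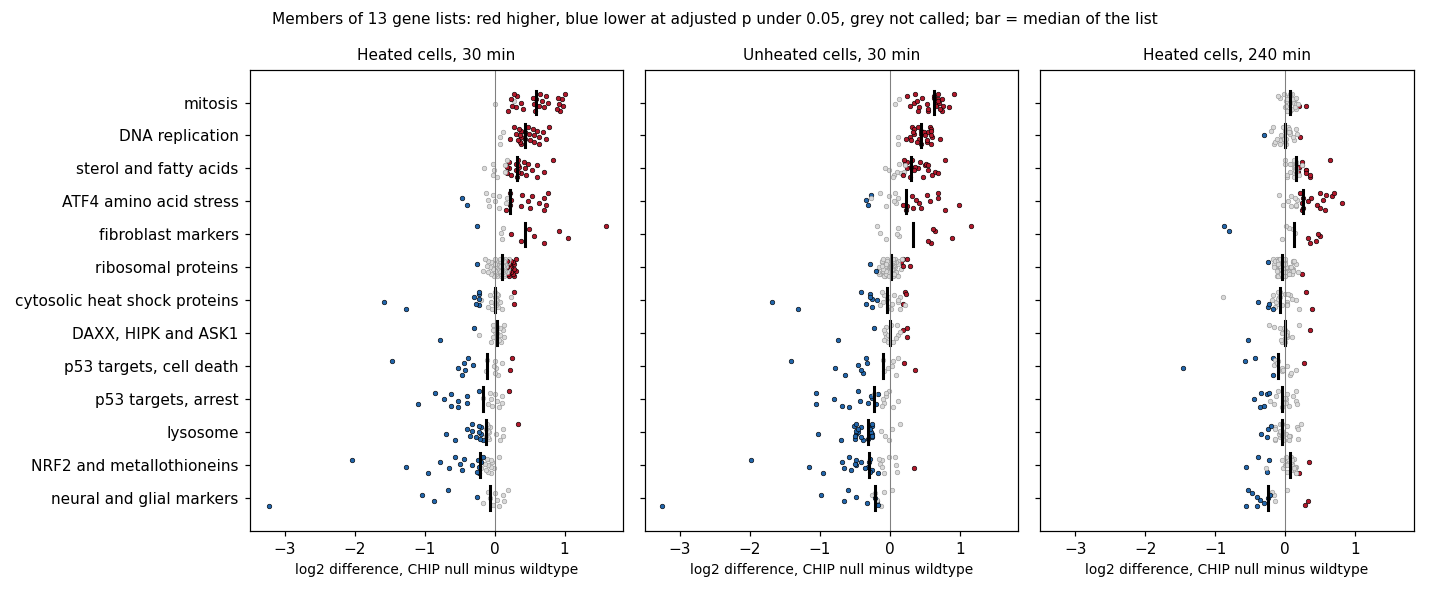
Log2 difference between CHIP null and wildtype (horizontal axis) of every tested member of 13 gene lists in heated cells at 30 min, unheated cells at 30 min and heated cells at 240 min, with called members in red (higher) or blue (lower), others in grey and the list's median as a bar. The medians of mitosis and replication, 0.59 and 0.43 in heated cells at 30 min, are 0.07 and 0.00 at 240 min, while the ATF4 list stays at 0.22 and 0.25.

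Many antioxidant genes were lower in heated null cells. Of 28 tested targets of NRF2, the transcription factor of the oxidative stress response, and metallothioneins, 16 were lower and 0 higher, with a median of -0.21 (11 lower with slide as a block). Besides Gstm1, the metal-binding Mt2 read -1.74, -1.88 and -1.61 in the wildtype, against -3.06, -2.94 and -3.03 in the null, a fall of 1.27 ± 0.08. Hmox1, which breaks down haem, read 1.02, 0.98 and 1.13 against -0.06, 0.19 and 0.16, and Sqstm1, the autophagy receptor p62, was lower by 0.78. At 240 min Hmox1 differed by 0.16 and Sqstm1 by 0.08, neither called, and 4 members of the list were lower and 2 higher. TGACNNNGC on either strand, the core of the antioxidant response element, was in the 250 bases before the start of 6 of 24 genes with an entry (25%), against 12.2% of the tested genes, 23.8% of the replication list, 18.2% of the metalloproteinase list and 17.4% of the mitosis list. The Mt2 window is shown with its match in capitals; that of Gstm1 has 0.
Mt2 promoter, chr8:94172368-94172617, plus strand: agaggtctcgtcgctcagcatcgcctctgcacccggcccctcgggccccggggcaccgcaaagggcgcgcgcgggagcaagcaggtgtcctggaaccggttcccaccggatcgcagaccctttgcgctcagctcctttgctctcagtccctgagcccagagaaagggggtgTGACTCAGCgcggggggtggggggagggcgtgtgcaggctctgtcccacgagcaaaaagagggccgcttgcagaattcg
Lysosomal genes also leaned lower: 13 of 27 were lower and 1 higher, with a median of -0.13. The protease Ctsd was lower by 0.70 ± 0.07, Ctsh by 0.56, the proton pump subunit Atp6v0d1 by 0.39 and Ctsl by 0.35. This count depends on the processing, with 3 lower when slide was a block and 4 with median centring.

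Most tested genes of lipid synthesis and many ATF4 targets were higher. Of 30 genes of sterol and fatty acid synthesis 23 were higher and 0 lower, with a median of 0.32. Fdps, an enzyme of the sterol pathway, read 0.68, 0.86 and 0.77 in the null against 0.22, 0.14 and 0.10 (0.09 by another probe). Msmo1, another enzyme of the pathway, read 1.17, 1.14 and 1.16 against 0.62, 0.58 and 0.46. Here 11 members were called with slide as a block and 7 with median centring, all higher in both.

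Of 25 genes induced by ATF4, the transcription factor of amino acid stress, 14 were higher and 2 lower, with a median of 0.22. Mthfd2, of mitochondrial folate metabolism, read 2.15, 1.69 and 1.84 against 1.02, 1.18 and 1.20. Shmt2, which interconverts serine and glycine, was higher by 0.71, Psat1, of serine synthesis, by 0.70 and the transcription factor Cebpb by 0.74. The ATF4 group was also higher at 240 min, where 16 were higher and 0 lower with a median of 0.25, and 12 were called in the same direction at both times. With slide as a block 9 were higher and 0 lower, and with median centring 8 and 1. Among 24 ER chaperones and sensors of unfolded protein 9 were higher and 2 lower, led by the chaperone Hspa5 (BiP) at 0.39 and the disulfide isomerases Pdia6 at 0.35 and P4hb at 0.31. With slide as a block 3 were higher and 0 lower, and with median centring 1 and 1.

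Matrix proteases, matrix proteins and chemokines moved in both directions, with larger sizes among the rises. Of 18 metalloproteinases and inhibitors 5 were higher and 1 lower, 33.3% in all against 28.4% of all autosomal genes. The counts were 4 and 0 with slide as a block, 2 and 0 with median centring, and 3 and 0 without null replicate 3. After Mmp3 and Adamts2 came Mmp13 and Mmp10, both at least 1.2-fold higher, with at least 1.23-fold for Mmp10, because the wildtype was not well above background. With median centring neither Mmp13 nor Mmp10 was called. Mmp13 was also not called without null replicate 2, nor Mmp10 without null replicate 3. The AP-1 motif TGAGTCA on either strand was in 4 of 11 promoters of this list (36.4%), in 3.11% of the tested genes and in 25% of the NRF2 list. The Mmp3 window carries it once, in capitals.
Mmp3 promoter, chr9:7445572-7445821, plus strand: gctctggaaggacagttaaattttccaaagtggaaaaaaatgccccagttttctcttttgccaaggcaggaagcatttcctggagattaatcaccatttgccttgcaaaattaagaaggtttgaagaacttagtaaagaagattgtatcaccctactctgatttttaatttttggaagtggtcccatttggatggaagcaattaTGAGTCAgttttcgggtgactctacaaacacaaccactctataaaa
Of 20 genes listed with chemokines and cytokines 8 were higher and 3 lower, 55% in all against 28.4% of all autosomal genes. With median centring the counts were 7 and 1. The protease inhibitor Slpi and the receptor Il1rl1, which the list also holds, led with the chemokines Cxcl5 and Ccl2. Of 21 collagens 9 were higher and 5 lower, 66.7% in all (5 and 4 with median centring). Col6a3 read -1.17, -0.91 and -0.82 against -2.05, -2.04 and -2.14 (0.19 by another probe), Col6a1 was higher by 0.61, and Col7a1 and the basement membrane collagen Col18a1 were lower by 1.02 and 0.61. Of 31 matrix glycoproteins and proteoglycans 10 were higher and 5 lower, 48.4% in all. The counts were 8 and 3 with slide as a block and 5 and 5 with median centring. After Dcn came Lum (lumican) at 0.92, the fibrillin Fbn2 at 0.78 and the thrombospondin Thbs2 at 0.63.

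Growth factor genes were mixed. In the IGF system 3 of 12 were higher and 4 lower, 58.3% in all against 28.4% of all autosomal genes. The counts were 2 and 2 with slide as a block and 1 and 4 with median centring. The adaptor Irs1 was lower by 0.75 (-0.06 by another probe) and the binding protein Igfbp3 by 0.62. Among 24 TGF-beta and BMP genes 10 were higher and 4 lower, 58.3% in all. The counts were 4 and 3 with slide as a block and 5 and 4 with median centring. The BMP antagonist Grem1 and the activin antagonist Fst were both at 0.66, Tgfb3 at 0.62 and the inhibitor of differentiation Id2 at -0.75. Of 22 WNT genes 5 were higher and 3 lower (3 and 4 with median centring), 36.4% in all against 28.4% of all autosomal genes. The feedback inhibitors Nkd2 and Nkd1 differed by 0.67 and -0.47. Of 22 imprinted growth genes 4 were higher and 6 lower, 45.5% in all. The counts were 5 and 2 with slide as a block, 3 and 2 with median centring, and 4 and 3 without wildtype replicate 3. Mest, expressed from the paternal copy, read -1.82, -1.98 and -1.78 in the wildtype, against -3.63, -3.17 and -3.35 in the null, and was lower by 1.14 at 240 min too.

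Immediate early genes, which respond quickly to growth signals, had 9 of 30 higher and 5 lower, 46.7% in all against 28.4% of all autosomal genes. They ran from the nuclear receptor Nr4a1 at 0.63 to the transcription factor Maff at -0.49. The counts were 3 and 2 with slide as a block, 1 and 2 with median centring, and 6 and 6 without null replicate 1. Of 34 interferon-stimulated genes 9 were higher and 2 lower, 32.4% in all and near the 28.4% of all autosomal genes, with Lgals3bp at 0.93. These counts were 5 and 1 with slide as a block, 2 and 1 with median centring and 6 and 1 without wildtype replicate 1. At 240 min 4 were higher and 20 lower, Lgals3bp at -0.78. Glycolysis and hypoxia genes had 5 of 27 higher, led by Slc16a3, and 6 lower, 40.7% in all (2 and 4 with median centring). Among the lower were the aldolase Aldoc (-0.86) and the phosphofructokinase Pfkp (-0.54). Of 25 smooth muscle and SRF genes 4 were higher and 7 lower, 44% in all. The counts were 0 and 3 with slide as a block, 0 and 2 with median centring, and 1 and 7 without wildtype replicate 1. The intermediate filament Des was at -0.71 and the calponin Cnn1 at -0.42. Cnn1 was not called with median centring. Ribosomal protein genes had 17 of 69 higher and 1 lower, 26.1% in all against 28.4% of all autosomal genes. Their median was 0.10, with none above the 0.30 of Rpl3 and Rps6. The count of higher ones was 4 with slide as a block and 5 with median centring. It was 10 without wildtype replicate 1 or 2, and 26 without wildtype replicate 3. Rpl3 was not called with the Feature Extraction ratio, with slide as a block or without wildtype replicate 2, and Rps6 not with median centring or slide as a block. HOX genes, which keep a record of body position, had 4 of 23 higher and 2 lower, 26.1% in all and near the 28.4% of all autosomal genes, with Hoxd13 at 0.54. With slide as a block 0 were called, with median centring 1, without wildtype replicate 3 only 2 and without null replicate 1 only 3.

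Fibroblast markers were present in both genotypes, most of them higher in the null. Of 12 markers 8 were higher and 1 lower, with a median of 0.43 (6 and 0 with slide as a block or median centring), and their summed Cy5 level was 62900 to 67200 on the null arrays and 31400 to 44800 on the wildtype arrays. S100a4, a calcium-binding protein of fibroblasts, read 5.00, 5.03 and 4.92 against 3.88, 3.90 and 4.01, and the surface protein Thy1, with a value on 2 of the 3 wildtype arrays, was higher by 0.71. Fap was not well above background in either genotype.

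Several markers of neural and glial cells were lower in the null. Of 15 tested 5 were lower and 0 higher, 33.3% against 28.4% of all autosomal genes, with a median of -0.07. The slide block gave 4 lower and 3 higher (median 0.06), and with the Feature Extraction ratio 9 and 0 (median -0.74). Of the 18 markers on the array, those tested had a summed level of 5600 to 5730 in the wildtype and 2480 to 2810 in the null. After Fabp7, the progenitor filament Nes was lower by 1.04 ± 0.05. The astrocyte filament Gfap differed by -0.86 and the stem cell factor Sox2 by -0.67, and neither was well above background in the null, so their level there is only bounded. In the wildtype 3 of the 18, Nefl and Snap25 among them, were below background on every array, and in the null 11 were. At 240 min 9 markers were lower and 2 higher, and Gfap was higher by 0.32. The part of these markers in the fall of Ncan and Mlc1 was not tested.

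Of the macrophage markers fewer were called in heated than in unheated cells, and the difference was called in 9 of the 15. In heated cells 4 of 15 were lower and 0 higher, 26.7% in all against 28.4% of all autosomal genes (14% lower). The median was -0.04, but by the Feature Extraction ratio 8 were lower with a median of -0.96. Summed levels were 2210 to 2350 in the heated wildtype and 1530 to 1700 in the heated null. In unheated cells all 15 were lower, where 35.4% of all autosomal genes were called and 20.3% were lower. Ptprc, Itgam, Cd53, Cybb and Laptm5 were below background in both heated groups. Lyz2, lysozyme, read -2.06, -2.20 and -1.93 in the heated wildtype, against -3.64, -3.36 and -3.68 in the heated null (-0.05 by another probe). Among markers of other cells, 2 of 9 endothelial markers were higher and 2 lower, 44.4% in all against 28.4% of all autosomal genes. Flt1 led at 0.98, and the counts were 1 and 0 with slide as a block and 1 and 2 with median centring. In cartilage and bone 2 of 9 were higher and 2 lower, 44.4% in all, led by Spp1 at 0.96 (4 and 0 with slide as a block). Of 15 epithelial and mesothelial markers 1 was higher and 2 lower, 20% in all. The counts were 1 and 0 with slide as a block or without null replicate 1, and 0 and 0 with median centring. Muscle markers had 1 of 20 higher and 1 lower, 10% in all. The counts were 2 and 2 with slide as a block and 1 and 3 without wildtype replicate 1 or null replicate 1. There were 0 calls without null replicate 2 or with median centring. Of the adipocyte markers 0 of 7 and of the blood markers 0 of 4 were called.

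Whether heat altered the effect of genotype was tested directly as the heated minus the unheated difference. Only 56 genes (0.48%) passed, 49 with a more positive difference in heated cells and 7 with a more negative one, and 13 passed 1.5-fold. With the Feature Extraction ratio 58 passed, 34 more positive and 24 more negative, so that 58.6% were more positive against 87.5%. Of the 87 genes past 2-fold only Lyz2 and Emilin2 were among them. The 5 most positive were the macrophage scavenger receptor Marco (1.83), the lysozymes Lyz1 (1.38) and Lyz2 (1.19), the protease Adam8 (1.11) and the macrophage receptor Adgre1 (0.83). Marco differed by -2.36 between unheated genotypes and by -0.53 between heated ones, and 9 of the 15 macrophage markers were called in this test. The 5 most negative were the nuclear export factor Cse1l (-0.47), Hnrnpa3 (-0.46), the water channel Aqp4 (-0.45), Twist2 (-0.45) and Egr1 (-0.45). Leaving out 1 array at a time gave 16 to 194 calls, the most without null heated replicate 1, and slide as a block gave 10.

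Genes close to Stub1 were counted separately. Of 97 tested within 2 Mb on chromosome 17, 41 (42.3%) were called, 19 higher and 22 lower, against 28.4% of all autosomal genes and 24.9% to 32.8% on single autosomes. Among the largest were Kifc5b at 1.02 (0.91 by another probe), the JNK scaffold Mapk8ip3 at -0.88 and Amdhd2 at -0.63 (-0.04 by another probe). Of the 41, 13 were called in the same direction at 240 min, Amdhd2 (-0.53) and Mapk8ip3 (-0.23) among them, and Kifc5b was not (-0.01). A test of this window against others was not made.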

How the data were processed

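RNA of 24 samples was hybridised to 2-colour Agilent arrays. Spot and background intensities, flags and a log10 ratio were deposited as made by Feature Extraction 9.1.3.1, per the file headers. Here Cy5 and Cy3 means were background-corrected (normexp, offset 50) and loess-normalised to a log2 ratio with limma 3.58.1 in R 4.3.3. Outlier spots (333) were left out. Probes were named through RefSeq (GRCm38.p6). Each gene was represented by its brightest probe, and a gene was tested if its Cy5 signal exceeded background clearly (the scanner flag) on the 3 arrays of at least 1 group. The model had 8 group means over all 24 arrays, and limma p-values were adjusted (Benjamini-Hochberg) over all 13486 genes, threshold 0.05, with 11655 autosomal genes reported. The labels do not say which embryos gave the cultures, so p-values measure the spread between these samples, which may be technical.

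The deposited value table (scaled log2 ratios of the authors, 24 columns) paired every column with a scanner file carrying the opposite time label (lowest r = 0.9975), and its heated columns were centred on controls, so it was not used further. Members and gene lists were chosen with earlier results of these data known. Genes named are the 15 largest rises and falls with separate groups and no opposing probe, up to 4 called genes per list, Stub1, Daxx, Trp53, Hsf1, Hspa1a, Hspa8, Hspd1, sex-linked genes, called neighbours of Stub1, and 5 genes each way for the differences with heat and time, and exceptions are marked. A few genes that this rule names are not reported here. "At least" folds set the bright group against the lowest well-measured signal of the dim one in Cy5, and are given only where they stay under the fold of the ratios. Tested on simulated data for 13486 genes, the heated comparison recovered 97 of 100 genes changed 1.5-fold and 100 of 100 changed 2-fold. It also called 9 unchanged genes. The simulated noise was independent between arrays and held no slide, sex or culture effect, so the recovery does not bear on those. Alternatives were another offset, the Feature Extraction ratio, median centring, other filters, probe means, replicate and slide blocks, only the compared arrays, and leaving out each array.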

Additional observations from a re-analysis of the deposited data

Results flagged for a closer look

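The genotype effect differed with heat in 56 autosomal genes (limma, heated minus unheated difference at 30 min). On the log2 scale it was more positive in heated cells for Marco (1.83), Lyz1 (1.38), Lyz2 (1.19), Adam8 (1.11) and Adgre1 (0.83). It was more negative for Cse1l (-0.47), Hnrnpa3 (-0.46), Aqp4 (-0.45), Twist2 (-0.45) and Egr1 (-0.45). Adgre1 was not well above background on any heated null array, and the heated difference of Marco ran from -1.75 to -0.48 over the alternative fits. Lyz1 and Lyz2 are close paralogs that the probes may not separate.

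In heated cells the genotype effect differed with the time label in 2114 genes. The 240 minus 30 min difference was 3.31 for Ncan, 2.78 for Mlc1, 2.67 for Fabp7, 2.14 for Gstm1 and 1.67 for Col7a1. It was -2.62 for Mmp3, -2.46 for Dcn (1 null array at 240 min), -2.31 for Il1rl1, -2.30 for Penk and -1.87 for Bst2.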

How the results depend on the processing

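The 30 largest differences kept direction and call in 449 of 449 alternative fits, and the other named genes in 1918 of 2073, with 144 calls lost and 11 changes of sign. The sign changed for genes that were never called: Hsf1 (-0.03 with offset 10, -0.04 with the Feature Extraction ratio, -0.05 with slide as a block, and -0.08 to 0.09 over left-out arrays), Hspa8 (-0.06 to 0.13 over left-out arrays) and Hspd1 (0.01 with median centring, 0.09 with the mean of probes, 0.15 with slide as a block, and -0.09 to 0.02 over left-out arrays). Median centring gave 1391 calls in heated cells at 30 min, 2541 in unheated cells, 5 for the effect of heat and 693 for the effect of time. Of those in heated cells at 30 min 28.4% were higher against 50.7%, at 240 min 8.08% against 35.6%, in unheated cells 66.3% against 42.7% and for time 29.1% against 42.4%. Slide as a block gave 1511 in heated cells at 30 min, 334 at 240 min, 1460 in unheated cells, 10 for heat and 588 for time. With the Feature Extraction ratio 58.6% of calls for heat were more positive against 87.5%. The count for heat, 56, was 37 with offset 10, 26 with genes well above background on all 24 arrays and 17 with only the compared arrays. Leaving out 1 array gave 2798 to 2973 calls in heated cells at 30 min, 1066 to 1888 at 240 min, 3366 to 3928 in unheated cells, 1768 to 2213 for time, and for heat 16 (without null unheated replicate 3) to 194 (without null heated replicate 1). The cause of these changes was not tested. Replicate numbers were not taken to pair the samples, since not every same-numbered pair correlated in its deviations: r was -0.132, -0.13 and -0.171 in heated cells at 30 min, 0.57, 0.0711 and 0.455 at 240 min and 0.121, -0.0878 and -0.254 in unheated cells. The replicate block gave 3328 calls there, 1579 at 240 min, 4155 in unheated cells, 59 for heat and 2117 for time. Signal over background limits genes measured on 1 side, and 3 arrays a group limit the precision.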
